A study of Mus musculus with 8 samples.

Results

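The urea cycle and the breakdown of amino acids were described in mouse liver by 39 genes, given by a list of symbols and found in the count table through their Ensembl identifiers. All 39 were found among the 45706 genes of the table, and all 39 passed the filter on low counts, the lowest count of any of them in any library being 294. Liver RNA of C57BL/6 mice was sequenced, with 1 library per mouse, from 4 mice labelled HuR KO and 4 mice labelled HuR WT, to compare the liver transcriptomes of the genotypes. HuR, the product of Elavl1, binds U-rich and AU-rich stretches of mRNA. The sources used here do not give which exons are missing in the KO, in which cells, what drives the deletion, or how old the mice were. Animal numbers in the titles form a pair of series whose meaning is not stated. The series 98 to 100 holds KO replicates 3 and 4 and WT replicate 3, and the series of 4-digit numbers holds KO replicates 1 and 2 and WT replicates 1, 2 and 4.

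Amino acids in excess are broken down mainly in hepatocytes. Aminotransferases move their amino groups onto glutamate and aspartate, and the urea cycle joins ammonia and the amino group of aspartate into urea. The carbon skeletons enter glucose synthesis or the citric acid cycle. Most of the enzymes are strongest in hepatocytes near the portal vein, and their genes respond to glucagon, glucocorticoids and dietary protein.

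Because HuR binds AU-rich stretches, the 3′ untranslated regions of the 39 genes were searched for the AU-rich core TATTTAT, which contains the pentamer ATTTA. The longest 3′ untranslated region of each gene in GENCODE M21 was searched on the transcript strand, on build GRCm38. The core was present in 8 of the 39 genes (20.5%), against 29.9% of 12739 genes tested that have an annotated 3′ untranslated region. The pentamer was present in 22 of the 39 (56.4%), against 69.8%, while the median length searched was 692 bases in the 39 genes and 1165 bases in the genes tested. Per kb of sequence the 39 genes held 1.85 pentamers, against 1.81 in the genes tested. The 8 genes with the core were Glud1, Got1, Gpt2, Hal, Kmo, Sds, Slc25a13 and Tdo2, with 6 matches in Kmo, 2 in Hal and 1 in each of the others. A match describes the letters only. Of the genes called without WT replicate 3 in the results below, Ass1, Asl, Arg1, Ahcy and Cth have no core. Glud1, Got1, Hal, Sds and Slc25a13 have the core and were called neither there nor over all libraries. Gpt2, Tdo2 and Kmo were picked by their results, and their sites are shown with 10 bases on each side and the core in capitals. The site of Gpt2 lies at chr8:85527101-85527127 (plus strand), that of Tdo2 at chr3:81958693-81958719 (minus strand), and those shown of Kmo at chr1:175660881-175660907 and chr1:175661121-175661147 (plus strand), the outermost of its 6.
Gpt2: agagggttagTATTTATagtcctaaca
Tdo2: tggtgtaatcTATTTATatgtgtagtt
Kmo, outermost upstream site: tattttatttTATTTATatgagtacac
Kmo, outermost downstream site: tttatcatttTATTTATatttcattgg

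The promoter of Gpt2 is shown because Gpt2 was the 1 gene of the 39 that passed edgeR's test between the groups over all libraries. It covers the 250 bases before the start in the RefSeq promoter table, chr8:85492326-85492575 of GRCm38.p6, plus strand, and 29 of the 39 genes had an entry there. Both strands were searched for TATAAA (the TATA box), CCAAT (the CCAAT box), GGGCGG (the GC box), TGACG (part of the cyclic AMP response element) and AGGTCA (letters read by many nuclear receptors), whose letters do not contain each other. The capitals mark 2 reverse complements of GGGCGG, at 179 and 153 bases before the start, which do not overlap, and no other of these motifs matched. GGGCGG in either orientation was found in 12 of the 30 promoters of the group and in 54.9% of 13453 promoters of genes tested.
Gpt2 promoter: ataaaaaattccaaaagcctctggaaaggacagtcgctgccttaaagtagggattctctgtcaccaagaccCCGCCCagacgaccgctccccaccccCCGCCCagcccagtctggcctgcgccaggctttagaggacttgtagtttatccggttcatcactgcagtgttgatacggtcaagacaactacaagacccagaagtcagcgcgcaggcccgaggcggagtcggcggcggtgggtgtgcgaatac

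Elavl1, the targeted gene, was counted at 49.4, 56.0, 49.1 and 45.6 CPM (counts scaled to a common library size) in KO replicates 1 to 4 and at 32.7, 45.7, 42.9 and 46.6 CPM in WT replicates 1 to 4. It was thus not lower in the libraries labelled KO (log2 fold change 0.25, adjusted p = 0.258), and every direction given here is one between libraries labelled KO and libraries labelled WT. Totals ran from 18649618 to 31249286 counts per library. WT replicate 3 stood apart, lying about as near to the KO libraries (root-mean-square log2 CPM distance 0.586) as to the other WT libraries (0.597), with KO replicate 4 its nearest library. Results are therefore given with and without it. Of the hepatocyte markers measured, 0 of 5 passed the test, and all 5 had negative log2 fold changes (median −0.13, lowest −0.39). By DESeq2, or with the series as a covariate, 1 was called lower. Their summed levels were 106500 to 128400 CPM in libraries labelled KO and 119100 to 134300 CPM in those labelled WT. Of these sums, albumin (Alb) made 86970 to 107500 CPM in KO and 97990 to 112000 CPM in WT libraries. Markers of bile duct cells were higher for 9 of 10 genes, at sums of 174 to 280.2 CPM in libraries labelled KO and 47.5 to 74.3 CPM in those labelled WT, and markers of stellate cells and fibroblasts for 4 of 10, at 483 to 572 CPM in KO and 394 to 437 CPM in WT libraries. No macrophage or endothelial marker of 8 each passed the test, at sums of 356 to 458 and 381 to 417 CPM in libraries labelled KO, and 335 to 429 and 344 to 410.3 CPM in those labelled WT. Lymphocyte markers summed to 2.64 to 3.95 CPM in libraries labelled KO and 3.88 to 6.85 CPM in those labelled WT, with 3 of 8 under 1 CPM everywhere. The part of these cell types in the results below was not tested, and in bulk RNA a smaller number of hepatocytes and less RNA per hepatocyte cannot be told apart.

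Over all 8 libraries, the share of the amino acid breakdown genes that passed the test was near that of all genes tested. Of the 39 genes, 1 (Gpt2) was lower in the libraries labelled KO and 0 were higher at an adjusted p under 0.05 (edgeR's quasi-likelihood F test, Benjamini-Hochberg adjusted over 14645 genes). That is 2.56% of the group, where 3.69% of all genes tested were called, 1.37% lower and 2.32% higher. At an unadjusted p under 0.05 there were 8 of the 39, and 2643 of the 14645 genes tested. DESeq2 called 3 of the 39 (6.28% of genes tested), limma-voom 2 (3.45%), and edgeR with the animal-number series as a covariate 4 (4.94%), with Gls2, Gpt and Kmo higher and Gpt2 lower. The median log2 fold change was −0.02 over the 39 genes and −0.005 over all genes tested. The 95% interval of the fold change lay within 1.5-fold in both directions for 26 genes and within 2-fold for all 39. Without WT replicate 3, 7 genes were lower and 1 was higher (20.5% of the group, where 8.32% of genes tested were called, 3.57% lower and 4.75% higher), and the median was −0.07. The 7 lower genes were Ass1, Asl and Arg1 of the urea cycle, Gpt2, Tdo2, Ahcy and Cth, and the higher gene was Kmo. The other 31 genes did not pass the test there either, with log2 fold changes from −0.62 (Bhmt) to 0.54 (Amt). Leaving out WT replicate 3 sets WT animals of the 4-digit series alone against KO animals of both series, so genotype and series are partly mixed there. Of the genes called in that fit, only Gpt2 and Kmo also passed over all libraries with the series as a covariate.

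**Figure D1:**
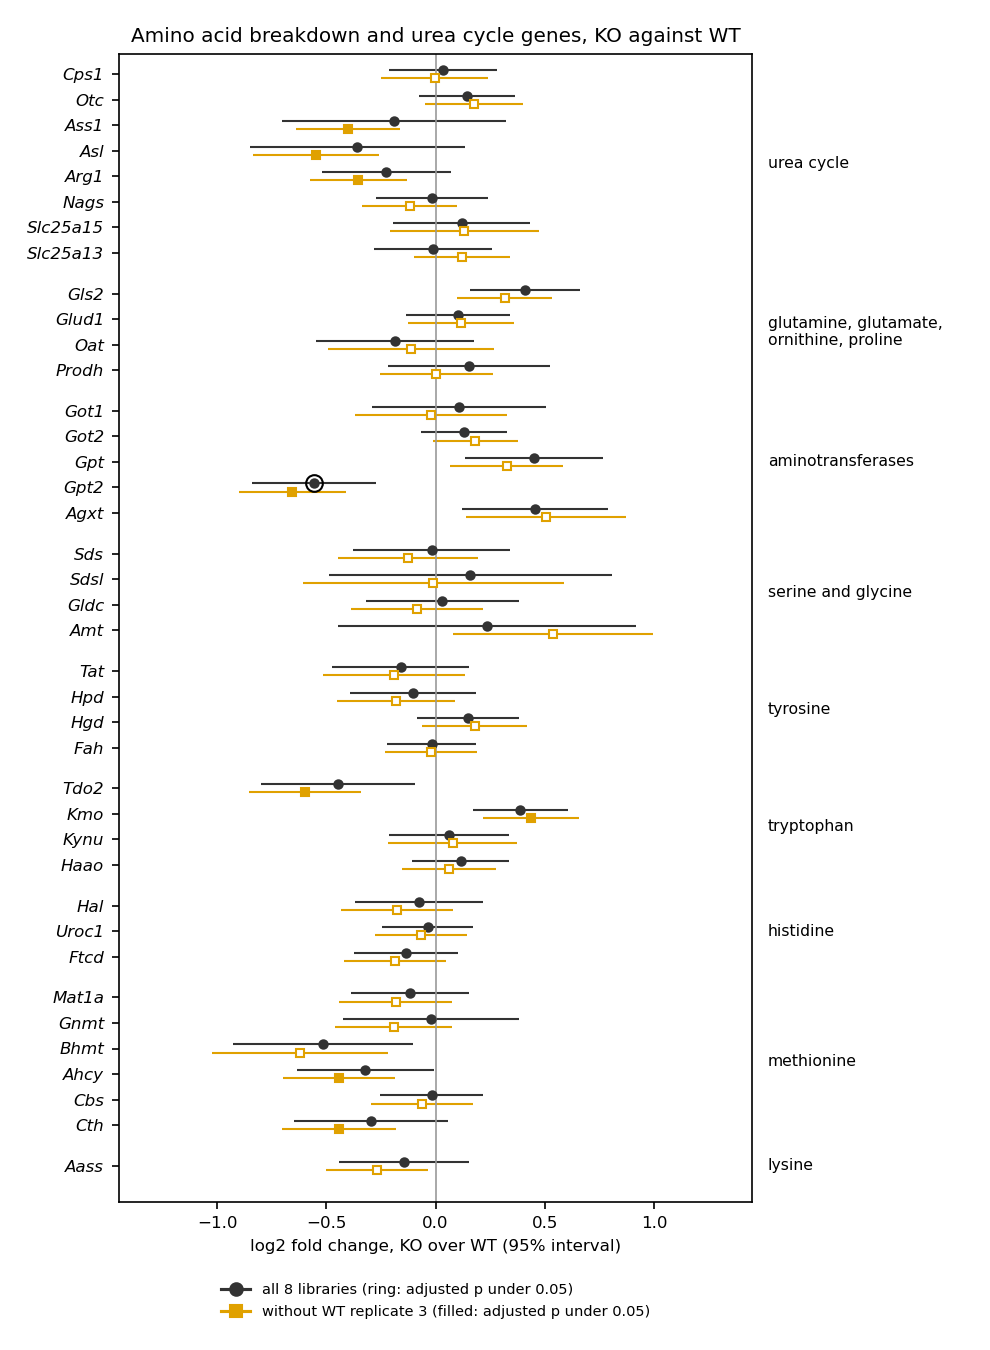
Log2 fold change of libraries labelled KO over libraries labelled WT with its 95% interval for each of the 39 genes, by role, over all 8 libraries (dark circles, ring at an adjusted p under 0.05) and without WT replicate 3 (squares, filled at an adjusted p under 0.05). Only Gpt2 carries a ring, at −0.56, and 8 squares are filled, 7 of them left of 0 and Kmo right of it.

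In the urea cycle, 0 of 8 genes passed the test over all libraries, and Ass1, Asl and Arg1, its last steps, were lower without WT replicate 3. With the series as a covariate their log2 fold changes were 0.02, −0.15 and −0.14 (adjusted p = 0.966, 0.561 and 0.609, edgeR's quasi-likelihood F test). Within the 4-digit animals they were −0.28, −0.34 and −0.33 (adjusted p = 0.331, 0.211 and 0.25, same test). Cps1, the mitochondrial carbamoyl phosphate synthetase that starts the cycle, had 7257, 6360, 6935 and 5811 CPM in KO replicates 1 to 4 and 6580, 6363, 5907 and 6890 CPM in WT replicates 1 to 4. The groups interleaved, at a log2 fold change of 0.03 (95% interval −0.21 to 0.28). Otc, which joins carbamoyl phosphate to ornithine to give citrulline, had 403 to 484 CPM in libraries labelled KO and 365 to 427 CPM in those labelled WT (log2 fold change 0.14, adjusted p = 0.514). Nags makes the activator of the carbamoyl phosphate synthetase and had 62.8 to 78.9 CPM in KO and 57.3 to 86.2 CPM in WT libraries. Slc25a15, the mitochondrial carrier that exchanges ornithine and citrulline, ranged from 354 to 593 CPM in KO and from 357 to 466 CPM in WT libraries. Slc25a13, the carrier that brings aspartate out of mitochondria, ranged from 267 to 300.1 CPM in KO and from 228 to 359 CPM in WT libraries. Of these 5 genes, Otc had the fold change farthest from 1, and without WT replicate 3 their log2 fold changes ran from −0.12 to 0.18.

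Ass1 (chromosome 2, 31470207 to 31520672, plus strand), which couples citrulline to aspartate, had 665, 615, 563 and 519 CPM in KO replicates 1 to 4 and 851, 728, 356 and 757 CPM in WT replicates 1 to 4. WT replicate 3 lay below every KO library and the other WT libraries above every one. KO over WT gave a log2 fold change of −0.19 (SE 0.23, adjusted p = 0.727), and −0.40 (SE 0.11, adjusted p = 0.0393) without that library. Asl (chromosome 5, 130011258 to 130029247, minus strand), which releases arginine and fumarate, had 877, 824, 692 and 566 CPM in KO replicates and 1108, 1017, 546 and 1120 CPM in WT replicates. The pattern was that of Ass1, with WT replicate 3 the lowest of all 8. On the log2 scale the difference was −0.36 (SE 0.22, adjusted p = 0.446), and −0.55 (SE 0.14, adjusted p = 0.0229) without that library. Arg1 (chromosome 10, 24915208 to 24927470, minus strand), the liver arginase that releases urea, had 2051, 1948, 2034 and 1847 CPM in KO replicates and 2679, 2457, 1657 and 2415 CPM in WT replicates. Here too WT replicate 3 was the lowest library and the other WT libraries the highest. The log2 fold change was −0.22 (SE 0.14, adjusted p = 0.429), and −0.35 (SE 0.10, adjusted p = 0.0488) without that library. Summed, Ass1, Asl and Arg1 reached 2931 to 3592 CPM in libraries labelled KO and 4202 to 4638 CPM in WT replicates 1, 2 and 4, against 2558 CPM in WT replicate 3.

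**Figure D2:**
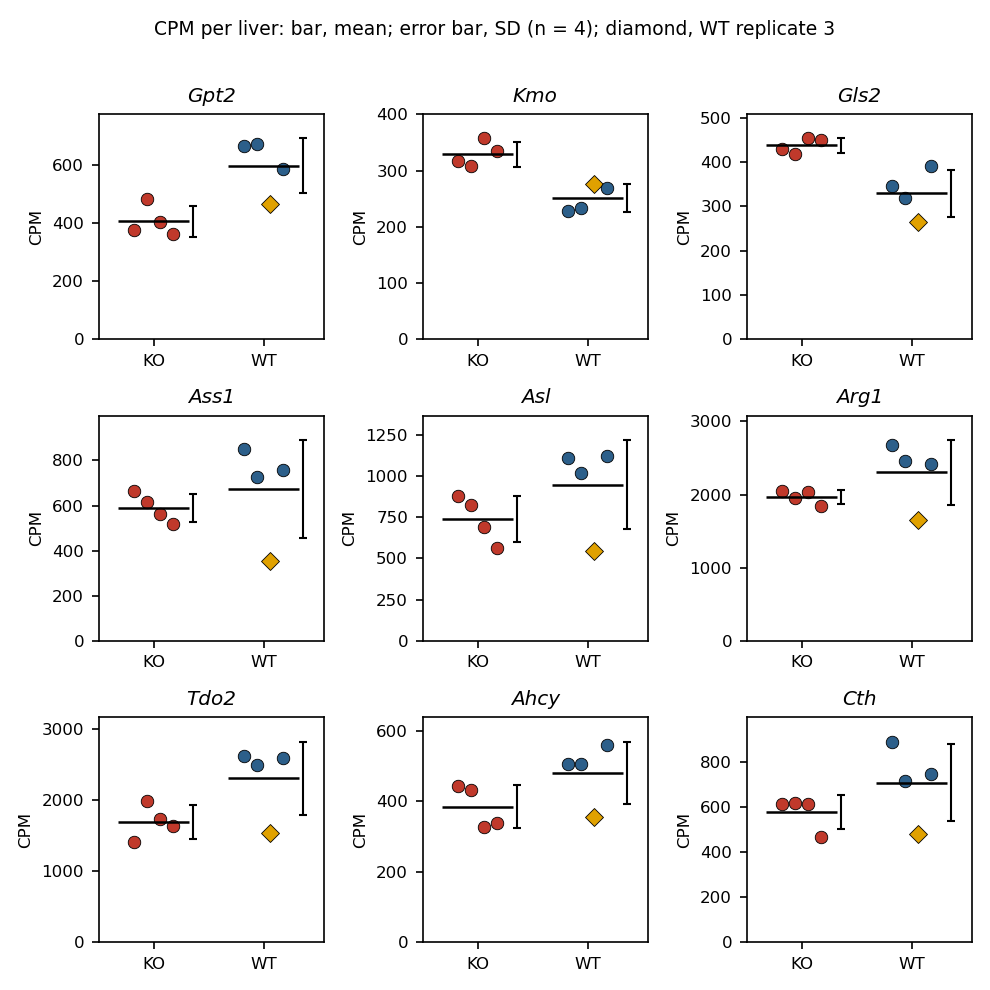
CPM of 9 genes in each liver, KO left of WT, with the group mean (bar) and SD (error bar, n = 4 each), WT replicate 3 drawn as a diamond. In the panels of Ass1, Asl and Arg1 the diamond lies below every KO library, and for Kmo and Gls2 the groups do not overlap.

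Among the genes that handle glutamine, glutamate, ornithine and proline, 0 of 4 passed the test over all libraries. Gls2 (chromosome 10, 128194457 to 128210004, plus strand), the liver-type glutaminase that frees ammonia from glutamine, had 429, 417, 453 and 449.5 CPM in KO replicates 1 to 4 and 346, 318, 264 and 389.9 CPM in WT replicates 1 to 4. Every KO library lay above every WT library. It differed by a log2 fold change of 0.41 (SE 0.12, adjusted p = 0.0703), and 0.32 (SE 0.10, adjusted p = 0.0693) without WT replicate 3. It passed the threshold by DESeq2 (adjusted p = 0.0175) and without WT replicate 4 (0.0409, edgeR's quasi-likelihood F test), and with the animal-number series as a covariate (0.0316). By limma-voom it did not pass (adjusted p = 0.0627). Without each library in turn, adjusted p ran from 0.0409 to 0.191 by edgeR's test, and WT replicate 4 was the only library whose removal gave a call. Of the 39 genes, Gls2 and Kmo were the 2 whose groups did not overlap, both higher in KO, where 11.2% of genes tested had groups that did not overlap, 6.19% higher and 5.01% lower. Glud1, the mitochondrial glutamate dehydrogenase, had 1136 to 1446 CPM in KO and 1108 to 1259 CPM in WT libraries (log2 fold change 0.10, and 0.12 without WT replicate 3). Oat, ornithine aminotransferase, had 692, 680.1, 1167 and 1015 CPM in KO replicates 1 to 4 and 936.5, 931, 1161 and 1018 CPM in WT replicates 1 to 4. The KO libraries formed a low pair of 4-digit animals and a high pair numbered 98 and 99, and the highest WT library was the animal numbered 100. For Oat the log2 fold change was −0.19 with and −0.11 without that library, −0.48 within the 4-digit animals (adjusted p = 0.0687) and −0.35 with the series as a covariate (adjusted p = 0.0782, edgeR's quasi-likelihood F test). Prodh, proline dehydrogenase, had 224 to 253 CPM in KO libraries, inside the WT range of 144 to 291 CPM whose lowest value was WT replicate 3 (log2 fold change 0.15, and 0.004 without it).

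Among the 5 aminotransferases of alanine, aspartate and glyoxylate, the mitochondrial alanine aminotransferase Gpt2 fell over all libraries. The other 4 did not pass the test there with the low-count filter and without a covariate. Gpt2 (chromosome 8, 85492576 to 85527560, plus strand), whose promoter and AU-rich site are printed above, had 377, 484, 403 and 363 CPM in KO replicates 1 to 4 and 665, 672, 468 and 587 CPM in WT replicates 1 to 4. WT replicate 3 was the lowest WT library and lay just under KO replicate 2, the only overlap between the groups. The means were 407 ± 53.8 CPM in libraries labelled KO and 598 ± 94.9 CPM in those labelled WT (SD, n = 4 each), a 1.47-fold lower level with a 95% interval from 1.21-fold to 1.79-fold lower. Its log2 fold change was −0.56 (SE 0.13, adjusted p = 0.0325, edgeR's quasi-likelihood F test, Benjamini-Hochberg adjusted), and −0.66 (SE 0.12, adjusted p = 0.00333) without WT replicate 3. The call was lost, at adjusted p from 0.0648 to 0.118 and with the log2 fold change between −0.565 and −0.495, when KO replicate 1, 3 or 4 or WT replicate 1, 2 or 4 was left out, and held without KO replicate 2.

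Gpt, the cytosolic alanine aminotransferase, went the other way in its values, with 553, 597, 494 and 450.1 CPM in KO replicates 1 to 4 and 457, 360.2, 281 and 437 CPM in WT replicates 1 to 4. Only KO replicate 4 lay inside the WT range. The log2 fold change was 0.45 (SE 0.15, adjusted p = 0.111), and 0.33 (adjusted p = 0.113) without WT replicate 3. By edgeR's quasi-likelihood F test it passed with the animal-number series as a covariate, at 0.56 (adjusted p = 0.00564). It also passed by that test with no low-count filter, at 0.448 (adjusted p = 0.03725). Agxt, which converts glyoxylate to glycine with alanine as donor, had 359.8, 338, 530.2 and 399 CPM in KO replicates 1 to 4 and 252, 253, 326 and 355 CPM in WT replicates 1 to 4. KO replicate 2 lay below WT replicate 4, and KO replicate 3 was far above the rest. On the log2 scale the difference was 0.46 (SE 0.15, adjusted p = 0.127), and 0.51 (adjusted p = 0.0866) without WT replicate 3. Of the aspartate aminotransferases, the cytosolic Got1 ranged from 354 to 623 CPM in KO and from 329.7 to 569 CPM in WT libraries, and the mitochondrial Got2 from 298 to 307 CPM in KO and from 261 to 305 CPM in WT libraries. Got2 varied less than Got1, and its highest WT value was that of WT replicate 3. Without that library the log2 fold changes were −0.02 for Got1 and 0.18 for Got2, against 0.11 and 0.13 with it.

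None of the 4 serine and glycine genes passed the test. Sds, serine dehydratase, had 271 to 387 CPM in KO and 242 to 391 CPM in WT libraries (log2 fold change −0.02). Sdsl, a gene related to Sds, was the lowest of the group at 12.9 to 26.5 CPM in KO and 9.71 to 19.8 CPM in WT libraries. Gldc and Amt encode subunits of the mitochondrial glycine cleavage system. Gldc had 361 to 507 CPM in KO and 313 to 533 CPM in WT libraries (log2 fold change 0.03). Without WT replicate 3 the log2 fold changes of Sds, Sdsl and Gldc lay between −0.13 and −0.01. Amt had 42.8, 31.0, 42.5 and 45.0 CPM in KO replicates 1 to 4 and 21.6, 24.2, 53.3 and 38.0 CPM in WT replicates 1 to 4. WT replicate 3 was here the highest of all 8 libraries. This gave a log2 fold change of 0.23 (95% interval −0.45 to 0.92), and 0.54 (adjusted p = 0.145) without it.

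In the tyrosine pathway 0 of 4 genes were called, with or without WT replicate 3. Tat, tyrosine aminotransferase and a classical glucocorticoid-responsive gene, had 1277 to 1521 CPM in KO libraries and a wider 1117 to 1875 CPM in WT libraries. Hpd, which makes homogentisate, ran from 2340 to 2914 CPM in KO and from 2254 to 3381 CPM in WT libraries. Hgd, which opens the ring of homogentisate, ran from 458 to 599 CPM in KO and from 434 to 508 CPM in WT libraries. Fah, which completes the pathway, had 524 to 568 CPM in KO and 523 to 601 CPM in WT libraries, at a log2 fold change of −0.02 (95% interval −0.22 to 0.19). The 4 genes had log2 fold changes from −0.16 to 0.15, and from −0.19 to 0.18 without WT replicate 3.

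In the tryptophan pathway, Tdo2 and Kmo had fold changes of opposite sign, and neither passed the test over all libraries. Tdo2 (chromosome 3, 81957090 to 81976202, minus strand) encodes tryptophan 2,3-dioxygenase, which opens the indole ring. It had 1419, 1988, 1742 and 1633 CPM in KO replicates 1 to 4 and 2617, 2497, 1540 and 2588 CPM in WT replicates 1 to 4. WT replicates 1, 2 and 4 lay together above every KO library, and WT replicate 3 lay inside the KO range. The log2 fold change was −0.45 (SE 0.17, adjusted p = 0.162), and −0.60 (SE 0.12, adjusted p = 0.00753) without WT replicate 3. With the series as a covariate it was −0.34 (adjusted p = 0.236), and within the 4-digit animals −0.59 (adjusted p = 0.0632, edgeR's quasi-likelihood F test). Kmo (chromosome 1, 175620381 to 175662116, plus strand) encodes kynurenine 3-monooxygenase, which hydroxylates kynurenine. It had 316, 307, 357 and 334 CPM in KO replicates 1 to 4 and 228, 233, 276 and 269 CPM in WT replicates 1 to 4. All KO libraries lay above all WT libraries, and WT replicate 3 was the highest WT library. The means were 329 ± 22.1 CPM in libraries labelled KO and 251 ± 24.7 CPM in those labelled WT (SD, n = 4 each). Its log2 fold change was 0.39 (SE 0.10, adjusted p = 0.0503), and 0.44 (SE 0.10, adjusted p = 0.0174) without WT replicate 3. Adjusted p was 0.00649 by DESeq2 and 0.0438 by limma-voom. By edgeR's quasi-likelihood F test it was 0.0545 with the replicate number as a block. Without each library in turn it ran from 0.0174 to 0.1645 by that test, and Kmo was called only without WT replicate 3. Kynu and Haao act after Kmo. Kynu, kynureninase, had 159 to 228 CPM in KO and 156 to 210.4 CPM in WT libraries, and Haao, which makes the precursor of quinolinate, had 269.6 to 295 CPM in KO and 227 to 299.7 CPM in WT libraries. The groups overlapped for Kynu and Haao, with log2 fold changes of 0.06 and 0.11, and of 0.08 and 0.06 without WT replicate 3.

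The histidine genes showed small negative fold changes, and 0 of 3 passed the test. Hal, histidine ammonia-lyase, had 640.3 to 822 CPM in KO and 599 to 963 CPM in WT libraries (log2 fold change −0.08). Uroc1, urocanase, had 488 to 535 CPM in KO and 490.4 to 577 CPM in WT libraries (log2 fold change −0.04). Ftcd, which passes the formimino group to folate, had 444 to 530.3 CPM in KO and 466 to 611 CPM in WT libraries (log2 fold change −0.14). Without WT replicate 3 the 3 values lay between −0.19 and −0.07.

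All 6 genes of methionine use and transsulfuration had negative fold changes, of −0.02 to −0.52, and 0 passed the test over all libraries. Of all genes tested, 7440 of 14645 were negative. The shared sign did not hold in every fit. Gnmt was positive by limma-voom (0.01) and with the series as a covariate (0.15). Among animals 98 to 100, against WT replicate 3 alone, 4 of the 6 were positive. Without WT replicate 3, Ahcy and Cth fell. Bhmt, which remethylates homocysteine with betaine, had 2434, 1711, 1319 and 1373 CPM in KO replicates 1 to 4 and 2504, 2572, 1889 and 2805 CPM in WT replicates 1 to 4. KO replicate 1 lay among the WT libraries and the other KO libraries lay below all of them. KO over WT gave a log2 fold change of −0.52 (SE 0.19, adjusted p = 0.170), −0.62 (adjusted p = 0.0605) without WT replicate 3, and −0.73 (adjusted p = 0.0314) without KO replicate 1. Ahcy, which splits S-adenosylhomocysteine, had 442, 431, 327 and 339 CPM in KO replicates 1 to 4 and 506, 505, 355 and 559.6 CPM in WT replicates 1 to 4. WT replicate 3 lay between the KO libraries numbered 98 and 99 and those of the 4-digit animals. The log2 fold change was −0.32 (SE 0.15, adjusted p = 0.266), and −0.44 (SE 0.12, adjusted p = 0.0355) without WT replicate 3. With the series as a covariate it was −0.20 (adjusted p = 0.246), and within the 4-digit animals −0.26 (adjusted p = 0.348, edgeR's quasi-likelihood F test).

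Cth, cystathionine gamma-lyase, which releases cysteine, had 611, 617.5, 612 and 465 CPM in KO replicates 1 to 4 and 889, 716, 481 and 744 CPM in WT replicates 1 to 4. The lowest values were those of KO replicate 4 and WT replicate 3. This gave a log2 fold change of −0.30 (SE 0.16, adjusted p = 0.370), and −0.44 (SE 0.12, adjusted p = 0.0385) without WT replicate 3. With the series as a covariate it was −0.17 (adjusted p = 0.538), and within the 4-digit animals −0.35 (adjusted p = 0.229, edgeR's quasi-likelihood F test). Mat1a, the liver S-adenosylmethionine synthetase and the most abundant of the group, had 6372 to 8310 CPM in KO and 6684 to 8742 CPM in WT libraries. Gnmt, glycine N-methyltransferase, had 1346 to 1854 CPM in KO libraries, inside the WT range of 1018 to 2030 CPM. Cbs, cystathionine beta-synthase, had 437 to 535 CPM in KO and 430.5 to 536 CPM in WT libraries (log2 fold change −0.02). For Gnmt and Cbs the lowest of the 8 libraries was WT replicate 3. Without it the log2 fold changes of Mat1a, Gnmt and Cbs were −0.18, −0.19 and −0.06. Aass, which starts lysine breakdown, had 571 to 679 CPM in KO and 489 to 819 CPM in WT libraries, and its log2 fold change of −0.14 did not pass the test (adjusted p = 0.645), nor did −0.27 without WT replicate 3 (adjusted p = 0.148).

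Much of what the group showed turned on WT replicate 3. It was the lowest of the 4 WT libraries for 26 of the 39 genes (66.7%, against 28.8% of genes tested) and the highest for 5, against 29.5%. It was the lowest of all 8 libraries for 17 genes (43.6%, against 12.6%). The 39 genes together took 3.69% to 4.14% of the counts in libraries labelled KO, 4.07% to 4.47% in WT replicates 1, 2 and 4, and 3.36% in WT replicate 3, the lowest share of the 8. Against the mean of the other WT libraries, the median log2 difference over the 39 genes was −0.34 in WT replicate 3, from −0.18 to 0.001 in the KO libraries and from −0.09 to 0.10 in the other WT libraries. Its summed hepatocyte markers, at 122700 CPM of which Alb made 98580 CPM, lay within the range of the other WT libraries. Its summed periportal and pericentral markers, at 12610 and 12420 CPM, were the highest of the 8 libraries. Such sums rest mostly on abundant genes, and cell content was not tested. Once WT replicate 3 was left out, 11 of the 39 genes had groups that did not overlap, 3 higher and 8 lower in KO. Of genes tested 21.3% did so, 11% higher and 10.3% lower. What sets this library apart was not tested.

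**Figure D3:**
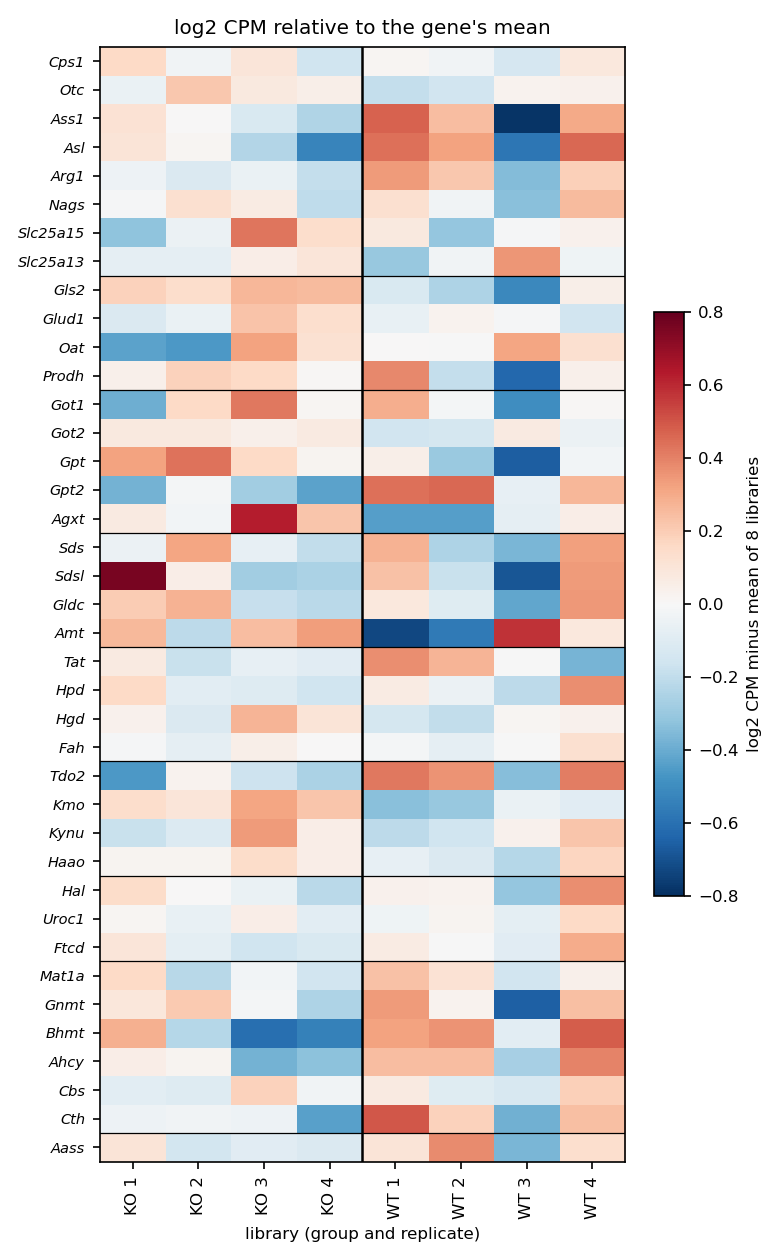
Log2 CPM of the 39 genes minus the gene's mean over 8 libraries (colour), 1 column per library with KO left of WT, lines between roles. The column of WT replicate 3 is blue in most roles, deepest for Ass1, Gnmt, Gpt, Prodh and Sdsl, and red for Amt, Slc25a13 and Oat.

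Within the 4-digit animals, with 2 KO and 3 WT libraries, 1 of the 39 genes was called (Gpt2, log2 fold change −0.57, adjusted p = 0.0479; 2.48% of genes tested were called, 1.43% higher and 1.05% lower), and the median log2 fold change was −0.07. Among animals 98 to 100, with 2 KO libraries against WT replicate 3 alone, 7 genes were called higher and 1 lower (6.45% of genes tested were called, 3.05% higher and 3.4% lower), and the median was 0.18. There the lone WT library is taken to vary like the KO pair, the spread has 1 residual degree of freedom, and each call restates where WT replicate 3 lay. The genes higher there were Gls2, Gpt, Got1, Prodh, Ass1, Gnmt and Agxt, with log2 fold changes from 0.51 to 0.77, and the gene lower was Bhmt, at −0.49. The fold changes had opposite signs in the 2 series for 21 genes, 18 of them higher in KO among animals 98 to 100 and lower among the 4-digit animals. Gls2, Gpt, Agxt and Kmo were among the 12 positive in both, and Gpt2 and Bhmt among the 6 negative in both. These signs too rest on WT replicate 3 among animals 98 to 100, the lowest WT library for 26 of the 39 genes. The share of all genes tested with opposite signs was not taken. The difference between the series was fitted as an interaction over all genes, a test chosen after the data had been seen. It called 0 of the 39 genes by edgeR's quasi-likelihood F test (smallest adjusted p = 0.304, for Ass1) and 0.0205% of genes tested. At an unadjusted p under 0.05 there were 10 of the 39, a number not set against that over all genes. Series and WT replicate 3 cannot be told apart within the WT group.

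**Figure D4:**
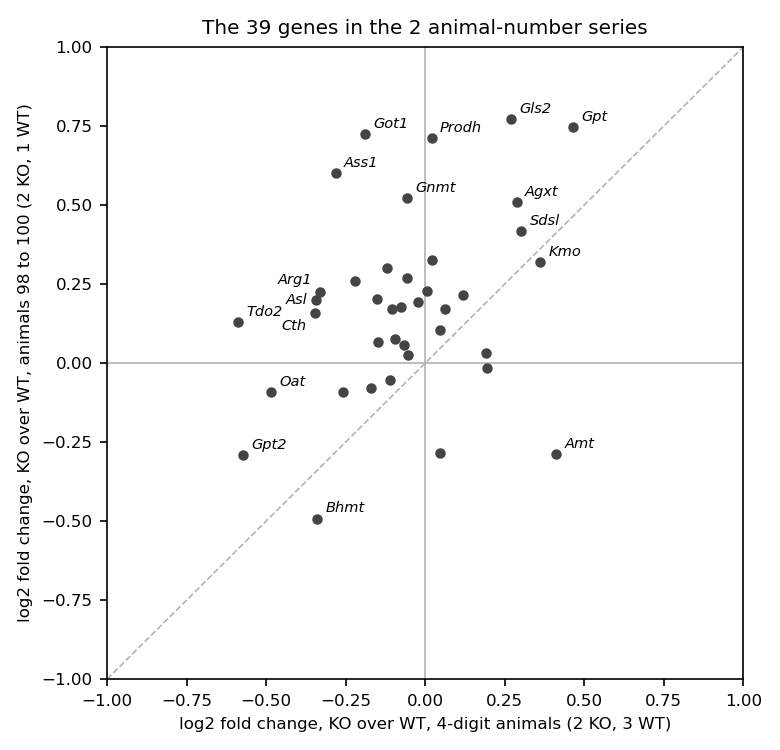
Log2 fold change of KO over WT for each of the 39 genes among animals 98 to 100 (vertical axis, 2 KO libraries against WT replicate 3) and among 4-digit animals (horizontal axis, 2 KO and 3 WT libraries), with the line of equality dashed. Above 0 on the vertical axis and left of 0 on the horizontal axis lie 18 genes, among them Tdo2, Ass1, Asl, Arg1, Cth and Got1, while Gpt2 and Bhmt lie at the lower left.

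Per kb of annotated exon the group spanned a wide range of expression. The annotated exon length can exceed that of a single transcript, which lowers the level of the gene. Against the transcript whose 3′ untranslated region was searched, it was 5643 and 3639 bases for Gpt2 and 4831 and 1824 for Asl. For Gpt it was 1749 and 1792 bases, so levels of different genes compare only roughly. Mat1a was the highest at 2237 CPM per kb in libraries labelled KO and 2426 CPM per kb in those labelled WT, followed in WT by Arg1 (1335 in KO and 1559 in WT), Gnmt (1345 and 1363), Hpd (1191 and 1279) and Cps1 (1186 and 1158). The libraries of Arg1, Gnmt, Hpd and Cps1 overlapped each other in both groups, and those of Mat1a lay above all of them. At the low end stood Nags (25.5 CPM per kb in KO and 25.8 in WT), Amt (16.6 and 14.1) and Sdsl (11.5 and 10.3), and 30 of the 39 genes exceeded 100 CPM per kb in WT. Within the cycle, Otc at 104 CPM per kb in KO and 93.8 in WT stood far below Cps1 and Arg1. Gpt, at 299 CPM per kb in KO and 219 in WT, exceeded Gpt2, at 72.0 in KO and 106 in WT.

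**Figure D5:**
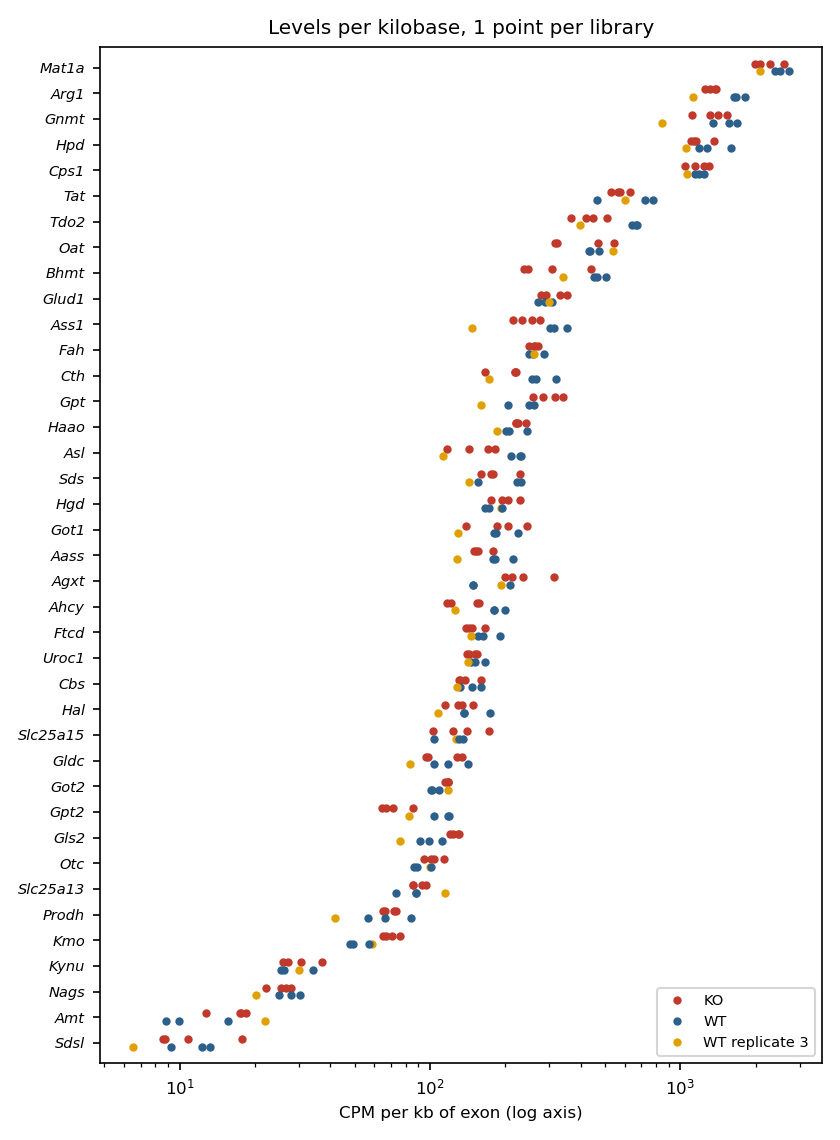
Level of each of the 39 genes in every library in CPM per kb of exon, on a log axis, ordered by the WT mean, with KO points above WT points in each row and WT replicate 3 in its own colour. The genes run from Sdsl, with a WT mean of 10.3, to Mat1a, with a WT mean of 2426, and the KO and WT points of most genes overlap.

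The wider pathway was described by 58 further genes of amino acid breakdown, of which 54 were measured, 3 were higher and 0 lower in libraries labelled KO, with a median log2 fold change of −0.02 (4 higher and 2 lower without WT replicate 3). Of all genes tested, 2.32% were higher and 1.37% lower, and 4.75% and 3.57% without WT replicate 3. Glul stands both on this list and on that of pericentral genes below. Mccc1, a subunit of methylcrotonyl-CoA carboxylase of leucine breakdown, had 70.4, 79.2, 76.3 and 76.1 CPM in KO replicates 1 to 4 and 53.4, 54.8, 56.4 and 59.1 CPM in WT replicates 1 to 4, with no overlap (log2 fold change 0.43, SE 0.08, adjusted p = 0.0094). The others were Suox, sulfite oxidase, which ends the oxidation of cysteine sulfur (177 ± 11.9 CPM in KO and 133 ± 15.4 CPM in WT, SD, n = 4 each; log2 fold change 0.41, adjusted p = 0.041), and Shmt2, the mitochondrial serine hydroxymethyltransferase (213 ± 12.3 and 161 ± 21.2 CPM; 0.40, adjusted p = 0.0498). Without each library in turn, adjusted p reached 0.0409 for Mccc1, 0.142 for Suox and 0.167 for Shmt2. Of 15 amino acid carriers, Slc16a10, which carries aromatic amino acids across the cell membrane, was lower (134, 171, 159 and 136 CPM in KO replicates and 238, 248.5, 166 and 209 CPM in WT replicates; log2 fold change −0.52, adjusted p = 0.0391). Its lowest WT value was that of WT replicate 3, the only one inside the KO range, as for Gpt2. The log2 fold change of Slc16a10 without that library was −0.63 (adjusted p = 0.00307), and Slc7a8, a carrier of neutral amino acids, was higher there (0.68, adjusted p = 0.0446). Over all libraries 0 of 14 regulators of these genes passed the test by edgeR, DESeq2 or limma-voom. By edgeR the smallest p were those of Ppara (log2 fold change −0.40, adjusted p = 0.197) and Foxo1 (0.25, adjusted p = 0.297). At an unadjusted p under 0.05 by edgeR there was 1, and 2643 of 14645 genes tested. Gcgr, the glucagon receptor, was higher without WT replicate 3 (0.45, adjusted p = 0.0279). Slc7a8 and Gcgr were named after their values were seen.

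Of 12 other genes of the periportal zone, 3 were higher, and these were Spp1, Sox9 and Cdh1, of which Spp1 and Sox9 also stand among the bile duct markers (2.32% of all genes tested were higher). Without WT replicate 3, 4 were higher, Hsd17b6 among them (1.08, adjusted p = 0.0485, edgeR's quasi-likelihood F test), and 1 was lower. In that fit 4.75% of genes tested were higher and 3.57% lower. Within the 4-digit animals 1 was higher (Spp1) and 1 lower (Mup20, −0.92, adjusted p = 0.0139, same test). The summed periportal genes reached 10080 to 11690 CPM in libraries labelled KO and 10680 to 12610 CPM in those labelled WT. Of 13 pericentral genes 0 passed edgeR's test over all libraries, and 2 were higher by DESeq2. At an unadjusted p under 0.05 by edgeR there were 6, and 2643 of 14645 genes tested. Glul, the glutamine synthetase that fixes the ammonia left over near the central vein, had 1134, 1109, 1373 and 1520 CPM in KO replicates 1 to 4 and 611, 602, 1087 and 914 CPM in WT replicates 1 to 4. The groups did not overlap, and WT replicate 3 was the WT library nearest to the KO libraries. It differed by a log2 fold change of 0.68 (SE 0.19, adjusted p = 0.0746), and 0.86 (adjusted p = 0.00665) without WT replicate 3. Also without that library, Cyp1a2 (−0.58, adjusted p = 0.0254) and Cyp27a1 (−0.46, adjusted p = 0.0166), both cytochrome P450 enzymes, were lower. The zone genes called only in part of the libraries were named after their values were seen.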

How the data were processed

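Per the labels' protocols, frozen livers were extracted with a column kit and enriched mRNA was made into strand-specific libraries. The authors deposited raw read counts per gene, unnormalized. Per the submitters' processing notes, bcl2fastq 2.19.1, GSNAP and featureCounts 1.5.1 were used on mm10 (GRCm38). Per the file headers, the Ensembl 81 annotation was counted with strand setting 2 and a minimum mapping quality of 1. Multi-mapping reads are left out by that command, so a gene with a near-identical copy can be understated. Of 45706 gene identifiers 45143 matched a symbol, and 92 spike-in entries at 0 were not used.

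Counts were analysed with edgeR 4.0.16 in R 4.3.3 (filterByExpr with minimum count 10, TMM scaling, robust quasi-likelihood fit, F test, Benjamini-Hochberg adjustment over 14645 genes, called under an adjusted p of 0.05). SEs and 95% intervals come from the F statistic. CPM values are TMM-scaled, and CPM per kb divides them by the table's exon length. No 2 libraries agreed within sampling noise. The step was tested on simulated data. Alternatives were RLE and upper quartile scaling, no filter, a filter of 1 CPM in 4 libraries, DESeq2 1.42.0, limma-voom (limma 3.58.1), the replicate number as a block, the animal-number series as a covariate or alone, and leaving out each library. The groups share replicate numbers, which were not treated as pairs.

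The 39 genes and the other lists were chosen with earlier results of these data known, so no list is tested. All 39 are named by role, and of the other lists the called genes by p (at most 6) or, where none was called, the 2 with the smallest p. Marker lists are given mainly by counts and sums.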

Additional observations from a re-analysis of the deposited data

Results flagged for a closer look

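In 78 groups of 4 values (each of the 39 genes in KO and in WT), 3 had a single value far from the others, its gap to the nearest of them taking most of the group's range (past the 95% limit of Dixon's test). Chance gives about 1 in 20. Got2 in KO replicate 3 was at 298 CPM, and the gap took 0.869 of a narrow range. Cth in KO replicate 4 was at 465 CPM, below the other KO libraries, with a gap of 0.958 of the range. Tdo2 in WT replicate 3 was at 1540 CPM, below the other WT libraries, with a gap of 0.889 of the range.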

How the results depend on the processing

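The 1 lower and 0 higher genes of the 39 became 7 lower and 1 higher without WT replicate 3, and over the libraries left out in turn ranged from 0 to 7 lower and from 0 to 1 higher. Counts of higher genes were 2 by DESeq2 and 1 by limma-voom, with upper quartile scaling or with the stricter filter. They were 3 with no filter or with the series as a covariate. Among animals 98 to 100 the median of the 39 was 0.18, and Ass1 (0.60) and Gnmt (0.52), negative over all libraries, were positive. WT replicate 3, the only WT library there, was the lowest of all libraries for Ass1 and Gnmt. The covariate fit called 4.94% and limma-voom 3.45% of genes tested, DESeq2 6.28%. Over all genes, 340 were higher and 201 lower. DESeq2 gave 564 and 436, the 4-digit animals 215 higher, animals 98 to 100 528 lower, no filter 328 lower, and the covariate 308 lower. Leaving out each library gave 151 to 710 higher and 71 to 534 lower. The other breakdown genes, 3 higher and 0 lower, were 0 higher among 4-digit animals and 5 with the covariate. They were 1 lower by DESeq2 or with no filter, and, over libraries left out, 1 to 4 higher and 0 to 2 lower. Of the values of single genes of the 39 under the alternatives, 595 kept direction and side of the threshold, 72 changed sign while called in neither fit (15 of them among animals 98 to 100, at most 8 elsewhere), 26 became called, 7 lost the call and 2 reversed. The 2 reversed values were those of Ass1 and Gnmt among animals 98 to 100, against WT replicate 3 alone. The causes were not tested. In the pairing check, same-numbered libraries deviated together at r of 0.025, 0.025, 0.12 and −0.15. Replicates 1, 2 and 3 also share the animal-number series and replicate 4 does not, the labels tie the replicate number to no litter or day, and the numbers were not taken as pairs. With the replicate number as a block 0 genes were higher and Gpt2 was lower (−0.55, adjusted p = 0.0303), and the median was 0.001. Depth was at least 294 counts for each of the 39 genes in every library, and the number of mice, 4 per group, limits the precision.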

Other observations

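The spread within groups depended on WT replicate 3. The median coefficient of variation over the 39 genes was 11.2% in the libraries labelled KO and 17.6% in those labelled WT, and 10.4% over WT replicates 1, 2 and 4.

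In the 30 RefSeq promoters found for 29 of the 39 genes, AGGTCA, letters read by many nuclear receptors, was present in 12, against 11.5% of 13453 promoters of genes tested and 14.0% of all 32851 promoters of the table. TATAAA was present in 5 of the 30 (16.7%), against 7.03% of promoters of genes tested, CCAAT in 15 of the 30 against 34.8%, and TGACG in 3 of the 30 against 25.4%. Both strands of the 250 bases before the start were searched. These shares describe letters, and genes of the list were not compared with genes of like expression.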
